A study of Mus musculus with 7 samples.

Results

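The regions described here are promoters of single protein-coding genes that carried a peak of H3K27-Ac, acetylation of lysine 27 of histone H3, in every one of 3 mouse tumour cell clones. They were chosen by merging the peaks of the 3 lists on chromosomes 1 to 19 and X wherever they overlapped by at least 1 bp, and by keeping the merged regions that held a peak of each list and lay within 1 kb of a transcript start of a protein-coding gene on GRCm38. Regions near starts of protein-coding genes on opposite strands were left out, since a peak there cannot be given to either gene. This left 8503 of 57707 merged regions, or 54.1% of the 15731 regions with a peak in all 3 lists, and they are called shared promoters in what follows. Because the presence of peaks chose the regions, their widths and fold enrichments are given as a description and no test was made of them.

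The clones came from different skin tumours of Cdkn2ab-/- mice of an FVB/129P2 backcross, in which the locus of p15Ink4b, p16Ink4a and p19Arf had been disrupted in 129P2 embryonic stem cells and by germline Cre from an Act-Cre transgene. Each was a single clone picked for growth in soft agar and then kept as an adherent culture in medium with fetal calf serum, with or without hormone supplements, so the 3 clones stand for anchorage-independent cells of these tumours and not for whole tumours. H3K27-Ac was measured in 1 library of clone 1, 1 library of clone 2 and 2 libraries of clone 3, which the authors had pooled, and IgG in 1 library of clone 1 and 2 libraries of clone 3. All 3 clones lacked Cdkn2ab, none had been treated, there was no group without the deletion, and the sources used here give no age of the mice. Neither Cdkn2a nor Cdkn2b had a peak within 1 kb of a start in any list.

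The cell type was checked by markers. Of 14 keratinocyte and hair follicle markers, 3 had a shared promoter, namely Cdh3, Itga6 and Sox9, whereas 7 had no promoter peak in any list, among them Krt5, Trp63, Cdh1 and Epcam. The other 4, Col17a1, Krt14, Krt15 and Lhx2, had a promoter peak in 1 list. Of 10 mesenchymal markers, 7 had a shared promoter, including Vim, Fn1, Twist1 and Zeb1, and the other 3 had a promoter peak in 1 or 2 lists. None of 6 immune and none of 6 endothelial markers had one, and of 6 melanocyte markers Mitf did. Several defining markers of keratinocytes thus had no promoter peak in cultures grown from skin tumours. A clone is a bulk culture, so that acetylation in fewer cells and less acetylation per cell cannot be told apart.

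Acetylation of H3K27 is laid down by the acetyltransferases Ep300 and Crebbp on nucleosomes that flank active promoters and enhancers, and it excludes the trimethylation that Polycomb complexes place on the same residue. Around an active start the core promoter itself is kept largely free of nucleosomes, so the mark forms shoulders on the nucleosomes to either side. Most mammalian promoters that are active in many tissues lie in CpG islands and lack a TATA box, whereas many promoters of tissue-specific genes are poor in CpG.

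The contrast of CpG content, on which the comparison of sequences below rests, is visible in the bases before the starts of a pair of shared promoters of high fold enrichment, one of either kind. The sequences are those of RefSeq's copy of GRCm38.p6 and are printed on the strand of the gene, up to the base before the start, with each CpG in capitals. Ppp2ca, for the catalytic subunit of protein phosphatase 2A, lies on the plus strand and its 200 bases at chr11:52098481-52098680 hold 16 CpG.
Ppp2ca: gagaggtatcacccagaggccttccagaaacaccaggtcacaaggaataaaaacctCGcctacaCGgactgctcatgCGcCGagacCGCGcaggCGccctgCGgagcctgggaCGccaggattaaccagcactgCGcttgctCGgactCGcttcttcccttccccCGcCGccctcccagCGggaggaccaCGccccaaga
Trim39, for a ubiquitin ligase of the tripartite motif family, lies on the minus strand and its 200 bases at chr17:36272005-36272204 hold 4 CpG.
Trim39: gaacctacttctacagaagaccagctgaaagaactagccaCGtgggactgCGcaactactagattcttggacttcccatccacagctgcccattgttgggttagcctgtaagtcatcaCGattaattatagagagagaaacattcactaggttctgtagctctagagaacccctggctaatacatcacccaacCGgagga
Both regions were among the strongest in every list, with folds of 69.3, 101 and 30.4 at Ppp2ca and 60.02, 93.8 and 24.1 at Trim39 in clones 1, 2 and 3. A high fold was thus found with and without a CpG-rich start.

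Short motifs were searched for in the window from 250 bp before to 50 bp after the start of each gene, and for 7 of the 12 motifs the shared promoter whose lowest fold percentile over the lists was highest is printed as an example, with the motif in capitals. Srsf5 encodes a splicing factor of the SR family, and its ETS site is shown within the bases chr12:80945451-80945507 on the plus strand.
Srsf5, ETS site: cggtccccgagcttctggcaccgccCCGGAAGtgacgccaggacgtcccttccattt
Tax1bp1 encodes a selective autophagy receptor, and its NRF1 site, read on the other strand, is shown within the bases chr6:52713668-52713725 on the plus strand.
Tax1bp1, NRF1 site: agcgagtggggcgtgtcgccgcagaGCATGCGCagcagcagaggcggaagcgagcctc
Kmt2e encodes a chromatin protein of the MLL family, and its YY1 site is shown within the bases chr5:23434308-23434365 on the plus strand.
Kmt2e, YY1 site: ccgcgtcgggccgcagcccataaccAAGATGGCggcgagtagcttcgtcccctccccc
Flcn encodes folliculin, a regulator of lysosomal signalling, and its cyclic AMP response element (CRE) is shown within the bases chr11:59810056-59810113 on the minus strand.
Flcn, CRE: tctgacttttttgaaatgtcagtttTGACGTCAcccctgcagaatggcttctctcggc
Agbl3 encodes a tubulin carboxypeptidase, and its CTCGCGAG element is shown within the bases chr6:34780369-34780426 on the plus strand.
Agbl3, CGCG site: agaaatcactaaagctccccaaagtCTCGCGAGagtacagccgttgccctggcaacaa
Azin1 encodes antizyme inhibitor, which acts in polyamine synthesis, and its TATA box is shown within the bases chr15:38519266-38519321 on the minus strand.
Azin1, TATA box: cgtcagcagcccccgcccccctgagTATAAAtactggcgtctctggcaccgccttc
Klf9 encodes a zinc finger transcription factor. Its match to TGANTCA, the letters used for an AP-1 site, is shown within the bases chr19:23141112-23141168 on the plus strand. N stands for any base, and here it is A, so this is a match to the loose letters only.
Klf9, AP-1 site: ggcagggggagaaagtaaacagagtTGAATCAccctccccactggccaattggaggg
The folds at these 7 promoters lay between 56.2 and 71.8 in clone 1, between 84.1 and 112 in clone 2, and between 18.4 and 26.0 in clone 3. A match is a description of the letters and not of a bound factor.

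The shared promoters were regions of strong peaks. Their width had a median of 1649 bp with quartiles of 1242 and 2198 bp, and it ran from 362 to 13852 bp. Single-gene promoter regions with peaks in 2 lists had a median width of 905 bp and those in 1 list of 418 bp, but a merge of more peaks is wider by construction. Among regions that all lists shared, divergent promoters had a median of 1851 bp, promoters of lncRNAs alone of 1725.5 bp and regions away from starts of 1483 bp. The shared promoters of single genes thus lay below both other kinds of promoter in width and above the regions away from starts. Fold enrichment, which the authors give at each summit as ChIP over control, had a median of 18.3 at the shared promoters of clone 1, of 42.0 in clone 2 and of 8.04 in clone 3, against 7.70, 7.14 and 5.38 over all peaks of the same lists. Folds are not comparable between the lists, since control and depth differ, so each was also expressed as a percentile among the peaks of its own list. By that measure the median shared promoter stood at 80.3, 89.2 and 75.9. A region was represented by its strongest peak, which raises it against a list of all peaks. Divergent shared promoters stood higher, at 83.4, 91.4 and 79.7. Promoters of lncRNAs alone stood at 64.6, 78.3 and 65.9, and shared regions away from starts at 52.5, 68.0 and 55.1.

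**Figure D1:**
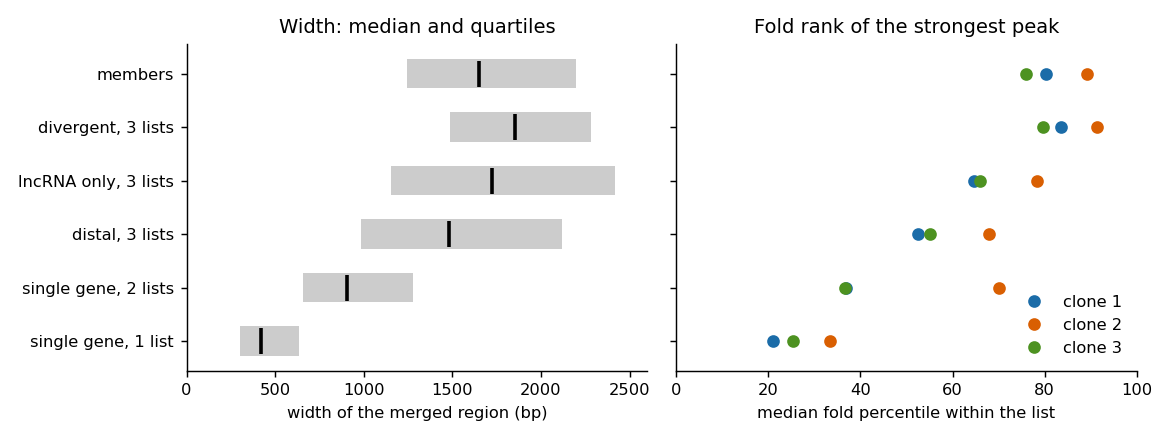
Width in bp and fold percentile within each list for shared promoters and for the other kinds of merged region. Shared promoters have a median of 1649 bp, below divergent (1851 bp) and lncRNA-only promoters (1725.5 bp) and above shared regions away from starts (1483 bp), and their median percentile lies at 80.3, 89.2 and 75.9 in clones 1, 2 and 3.

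Most of the strongest peaks of each list belonged to shared promoters. The shared promoters held 34.7%, 18.8% and 35.4% of the peaks of clones 1, 2 and 3, and of the top 10% of peaks by fold they held 80.4%, 80.0% and 68.8%. Weak members existed too, for 11.03%, 1.67% and 20.8% of the shared promoters of the respective clones ranked in the lower 50% of their list. A single peak made up the region in 7091 members of clone 1, 7831 of clone 2 and 6891 of clone 3, and up to 6 peaks did in the others. The number of ChIP reads behind the summit could be solved as a whole number for 99.0%, 99.1% and 98.9% of the members. The median was 95 reads in clone 1, 226 in clone 2 and 80 in clone 3. A single summit with 95 reads has a 95% Poisson interval of 76.9 to 116. For a summit with 226 reads the interval is 197 to 257, and for one with 80 reads it is 63.4 to 99.6. These intervals cover the counting error of a single summit only. They are not intervals of the medians and leave out the wider spread over the members. The least supported summits had 14, 16 and 26 reads.

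The same promoters ranked high in each clone. Spearman's rho of the fold over the 8503 members was 0.82 between clones 1 and 2, 0.67 between clones 1 and 3 and 0.61 between clones 2 and 3, as a description over promoters that share base composition and, within a clone, library. The control background solved at the same summits had a rho of 0.76 between clones 1 and 2, but of 0.10 between clones 1 and 3 and 0.10 between clones 2 and 3, so the fold of clones 1 and 2 was formed over backgrounds that rose and fell together. This background was low, with medians of 1, 1.02 and 2 control reads in clones 1, 2 and 3. Its rho thus rests on few reads. For summits within 50 bp of each other the background rho was 0.91 between clones 1 and 2. For the pairs of clones 1 and 2 with clone 3 it was 0.14 and 0.11. For the ChIP reads alone at all summits, without any control, rho was 0.85, 0.80 and 0.78 for the same pairs. Without the control the pairs with clone 3 thus came closer to the pair of clones 1 and 2. The summits of a region lay a median of 44 bp apart in clones 1 and 2, 56 bp in clones 1 and 3 and 58 bp in clones 2 and 3.

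A core of promoters was strong in every clone. Of the 850 members in the top 10% of a list's shared promoters, 286 were in the top 10% of all 3. Of all 8503 members, 152 were in the bottom 10% of all 3. The 10 members whose lowest percentile was highest included Ppp2ca, Morf4l1, which encodes a chromodomain protein of the NuA4 acetyltransferase complex, Srsf5, Mafg, a small Maf transcription factor, Eprs, an aminoacyl-tRNA synthetase, and Rnf4, a ubiquitin ligase for SUMO conjugates. Morf4l1 had folds of 70.7, 108 and 24.1 in clones 1, 2 and 3. Cnbp, for a nucleic acid binding zinc finger protein, had 59.4, 96.2 and 30.4. All of their regions were wider than the median shared promoter of 1649 bp, with 2020 to 3243 bp in 9 of the 10 and 5432 bp at Kmt2e.

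Shared promoters that stood far apart between clones were few. The fold percentile of a member spread over a median of 18.4 points between the lists, and the spread was under 20 points in 4530 members, or 53.3%. A lead of 50 points or more over both others was seen in 2 members of clone 1, 72 of clone 2 and 5 of clone 3. These counts depended on the ranking, and the list of clone 2 is the longest, with 49567 peaks against 29175 and 29272. Ranked among the shared promoters alone, a measure chosen after seeing the data, 7 members led in clone 1, 4 in clone 2 and 107 in clone 3. The largest lead in clone 1 was that of a start of Nrd1, which encodes the metalloprotease nardilysin, with folds of 19.1, 3.76 and 3.92. In clone 2 it was Spc24, for a kinetochore protein, with 3.86, 21.7 and 3.33, and in clone 3 Ugt1a6a, for a glucuronosyltransferase, with 5.37, 5.00 and 15.1. At Spc24 the percentiles were 4.03, 79.3 and 5.03, but among the shared promoters its ranks were 0.576, 16.4 and 1.31, so it was a weak promoter in every clone by that measure. At Ugt1a6a the ranks were 3.49, 0.541 and 91.1, and its lead in clone 3 stood under both rankings. At Nrd1 the ranks were 52.7, 0.0470 and 4.20, a lead in clone 1 of less than 50 points. The region of Nrd1 held no start, with the nearest 728 bp away and the principal start more than 1 kb away. Each clone is 1 culture, and whether such a lead would be met again in another culture was not tested.

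The mark lay downstream of the start. For the 7473 members that had the start of their gene's principal transcript within 1 kb, the strongest summit had a median position of 232 bp downstream in clone 1, 225 bp in clone 2 and 242 bp in clone 3. It was downstream in 87.5%, 87.9% and 83.7% of them, downstream in all 3 clones in 79.7%, and upstream in all 3 in 8.18%. The regions reached a median of 557 bp upstream and 1023 bp downstream, and 84.0% reached further downstream. The regions were thus lopsided towards the body of the gene in every clone, also in how often a given base was covered. The share of members covered by a peak was highest 250 bp after the start in clones 1 and 3, at 96.0% and 93.2%, and 150 bp after it in clone 2, at 98.2%. At the start itself it was 83.7%, 97.4% and 71.7%, and 1 kb away 40.1%, 41.2% and 32.5% downstream against 12.2%, 13.0% and 10.2% upstream.

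**Figure D2:**
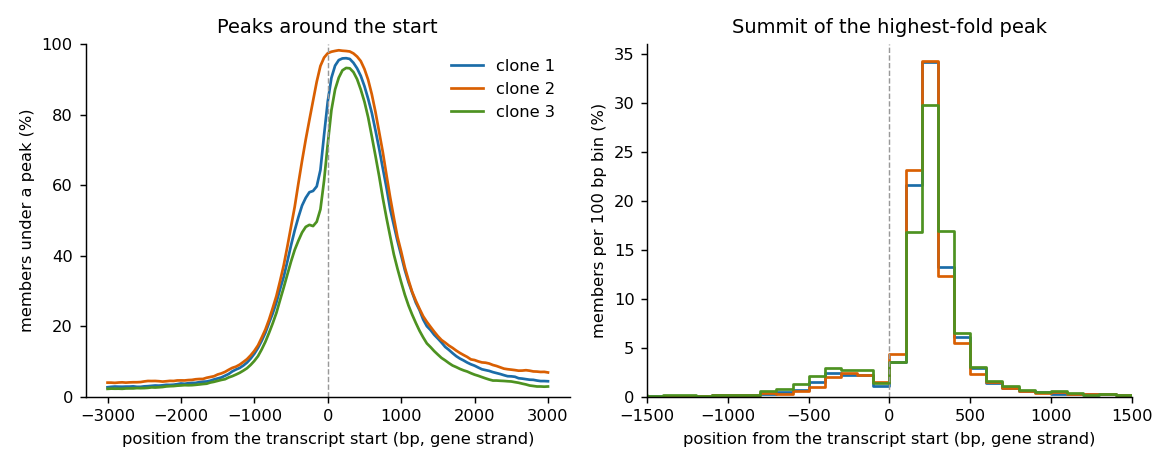
Share of 7473 shared promoters covered by a peak at each distance in bp from the principal start, and the distribution of summits, with 1 line per clone and positive distances downstream. All clones peak 150 to 250 bp after the start, and the lines of clones 1 and 3 level off 150 to 250 bp before the start, where that of clone 2 rises.

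A gap at the start separated some regions into an upstream and a downstream peak. Among members with exactly 2 peaks, the principal start lay in the gap between them in 242 of 1069 in clone 1 (22.6%), in 5 of 398 in clone 2 (1.26%) and in 395 of 1215 in clone 3 (32.5%). In the lists of clones 1 and 3 the coverage levelled off before the start, from 58.0% and 48.7% at 250 bp upstream to 59.6% and 49.6% at 150 bp, before it climbed towards the start. Clone 2, which had the most reads at its summits, rose over the same interval from 78.5% to 89.3%, and the part of depth in this was not tested. Counted over any annotated start, peaks of all 3 lists covered the start base in 81.1% of the members.

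An annotated lncRNA start on the other strand went with a longer reach upstream. An lncRNA start on the other strand lay within 1 kb of 1155 members, or 13.6%. The distance was counted from the edges of the region, so a longer region is more likely to have such a start. The part of this in the reach given below was not tested. Of those with a principal start, 1066 in number, the median reach upstream was 697.5 bp, against 532 bp in the 6407 others, and the reach downstream was 1130.5 against 1009 bp. The strongest summit was upstream in 16.4%, 15.9% and 22.4% of the former and in 11.9%, 11.5% and 15.3% of the latter in clones 1, 2 and 3. The downstream side remained the stronger in both kinds.

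The rule of 1 kb cut through few regions. A start lay inside 8250 members, or 97.0%, and outside the other 253. The farthest members inside the limit were those of Tk1 at 986 bp, Col16a1 at 984 bp and Slc37a2 at 983 bp, with folds in clone 1 of 7.30, 12.7 and 9.82. The nearest shared regions outside it were those of Traf3 at 1009 bp, Plxna1 at 1011 bp and Cyb5r3 at 1012 bp, with 8.78, 10.7 and 5.11. The 106 members with a start more than 500 bp away had median percentiles of 54.5, 72.4 and 52.1, close to the 52.4, 71.5 and 51.6 of 305 shared regions that lay up to 2 kb away and outside the limit.

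Of 21755 protein-coding genes, 8040 had a shared promoter (37.0%), and this share is the background against which the gene classes below are read. A further 2202 genes (10.1%) had only a divergent shared region, 924 had a promoter peak in 2 lists, 1424 in 1 list, and 9165 (42.1%) in none. A peak list holds only sites past its threshold, so that a gene without a peak is not shown to lack the mark.

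Most genes with a shared promoter had CpG-rich starts. CpG-rich starts had, in the window of the promoter, at least 50% GC and an observed to expected CpG ratio of at least 0.6. Of the 8040 genes, 5770 or 71.8% had one (Wilson interval 70.8 to 72.7). The interval treats genes as independent draws and covers no spread between clones or settings. The share was higher, at 78.1%, among genes with only a divergent shared region, so it was not particular to promoters of single genes. It was 44.3% among all genes, 41.7% among genes with a promoter peak in 1 or 2 lists and 12.6% among genes with none. Read the other way, 59.9% of 9627 CpG-rich genes had a shared promoter and 18.7% of 12128 other genes did. The median GC content was 61.0% against 48.7% in genes without a peak, and the median CpG ratio was 0.784 against 0.215. Among the shared promoters, CpG-rich ones were somewhat wider, with a median of 1682 against 1487 bp, and had higher folds, with 20.8 against 14.9 in clone 1, 46.8 against 35.7 in clone 2 and 8.66 against 7.12 in clone 3.

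Motifs that housekeeping promoters are known for were more frequent at shared promoters than at genes without a peak, over all genes. The ETS site CCGGAAG was in the window of 18.3% of genes with a shared promoter, 2.82% of genes without a peak and 11.3% of all genes. The GC box GGGCGG, to which Sp1 binds, was in 66.8%, 20.8% and 45.7%. The NRF1 site GCGCATGC was in 5.87%, 1.06% and 3.46%, and the YY1 site AAGATGGC in 4.88%, 1.02% and 3.08%. The CRE TGACGTCA was in 3.71%, 1.33% and 2.53%, and the CTCGCGAG element in 2.04%, 0.360% and 1.22%. All of these were found on either strand, and no motif holds another. Genes with only a divergent shared region had the ETS site in 26.5%, the YY1 site in 7.13%, the NRF1 site in 5.99% and the CRE in 4.45%. They had the CTCGCGAG element in 2.54% and the GC box in 65.4%. Only the GC box was below its share at shared promoters, so these motifs were not particular to promoters of single genes.

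Base composition differed between these groups of genes, so the shares were also compared among CpG-rich genes. There the GC box was in 78.0% of genes with a shared promoter and 73.7% of those without a peak, and the E-box CACGTG in 11.96% and 11.8%, so that both shares lay close together. The ETS site still differed, with 21.2% against 5.53%, as did the YY1 site with 5.62% against 0.9499% and the NRF1 site with 7.11% against 3.63%. The CRE was in 4.35% against 2.07%, and the CTCGCGAG element in 2.67% against 1.90%, a smaller contrast than over all genes. Among genes without a CpG-rich start, the GC box was in 38.5% against 13.1% and the E-box in 7.44% against 3.86%. There both shares differed. Composition was not matched further within either group. The YY1 site stood out by its place, for it was on the strand of the gene in 74.6% of the 382 genes with a principal start that held it and its median position was 11 bp after the start. The ETS site had a median position of -19.5 bp and lay on both strands about equally, on the gene strand in 57.8% and on the other in 51.1%.

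**Figure D3:**
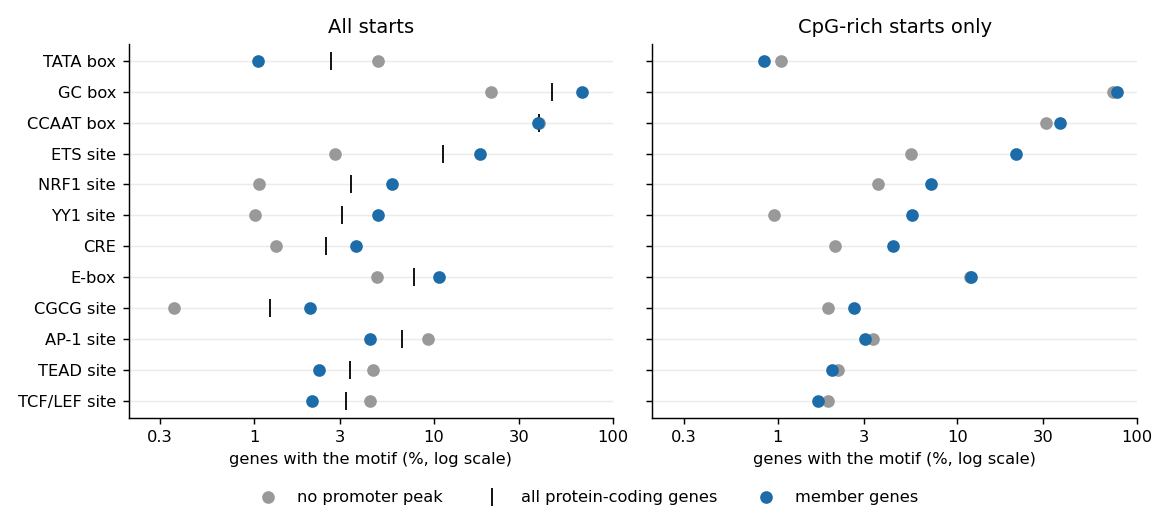
Share in percent of genes with each motif, for genes with a shared promoter, genes without a promoter peak and all genes. The ETS site lies at 18.3% against 2.82%, the TATA box at 1.04% against 4.88%, and the CCAAT box at 38.1% against 38.8%.

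Other motifs were less frequent or did not differ. The TATA box TATAAA, sought between 45 and 15 bp before the start on the gene strand, was in 0.454% of genes with only a divergent shared region. It was in 1.04% of genes with a shared promoter, 4.88% of genes without a peak and 2.69% of all. The AP-1 site TGANTCA was in 4.44%, 9.25% and 6.63%, the TEAD site ACATTCC in 2.29%, 4.60% and 3.41%, and the TCF/LEF site CTTTGAT in 2.11%, 4.43% and 3.24%. The AP-1 letters take any base at N, and their shares were not split by that base. Among CpG-rich genes these shares lay close together, with the AP-1 site in 3.07% of those with a shared promoter and 3.37% of those without a peak, the TEAD site in 2.01% and 2.16%, the TCF/LEF site in 1.66% and 1.90%, and the TATA box in 0.832% and 1.04%. Among genes without a CpG-rich start they stayed lower with a shared promoter. There the AP-1 site was in 7.93% against 10.1% and the TEAD site in 3.00% against 4.96%. The TCF/LEF site was in 3.26% against 4.80%, and the TATA box in 1.59% against 5.43%. Without this split, the CCAAT box, which NF-Y binds, was in 38.1%, 38.8% and 38.4%. The 78 members with a TATA box at a principal start had a median width of 2015 bp, against 1636 bp over all 7473, while their median folds of 16.7, 39.5 and 8.00 were below the 19.3, 44.0 and 8.28 of all.

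Genes of basic cell functions had shared promoters more often than the background of 37.0%. Of 81 cytosolic ribosomal protein genes 64 had one and 14 lay in divergent shared regions, which left Rpl10l, Rpl39l and Rpl3l, copies whose use is restricted to testis or muscle. All 78 genes of mitochondrial ribosomal proteins were in shared regions, 48 as single and 30 as divergent promoters. Of 49 proteasome genes 35 had a shared promoter and 11 a divergent one, and the 3 without a peak were Psma8 and Psmb11, which serve testis and thymus, and Psme2b. Of 51 splicing factors 36 had a shared promoter, and 42 of 75 genes of the respiratory chain. Several of these gene families have near-identical processed copies in the genome, so reads at them can be misplaced.

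These classes differed in strength and width although nearly all of their genes were marked. Splicing factor promoters had a median fold percentile of 93.5, 95.4 and 93.7 in clones 1, 2 and 3, compared with 81.7, 89.9 and 77.3 over all genes with a shared promoter. The mitochondrial ribosomal genes lay lower, at 70.5, 85.5 and 67.4, and had narrow regions with a median of 1156 bp. Cytosolic ribosomal genes had 85.8, 91.9 and 87.4 with a median width of 1871.5 bp. The range within a class was wide, since splicing factor folds in clone 1 ran from 9.94 to 69.8.

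**Figure D4:**
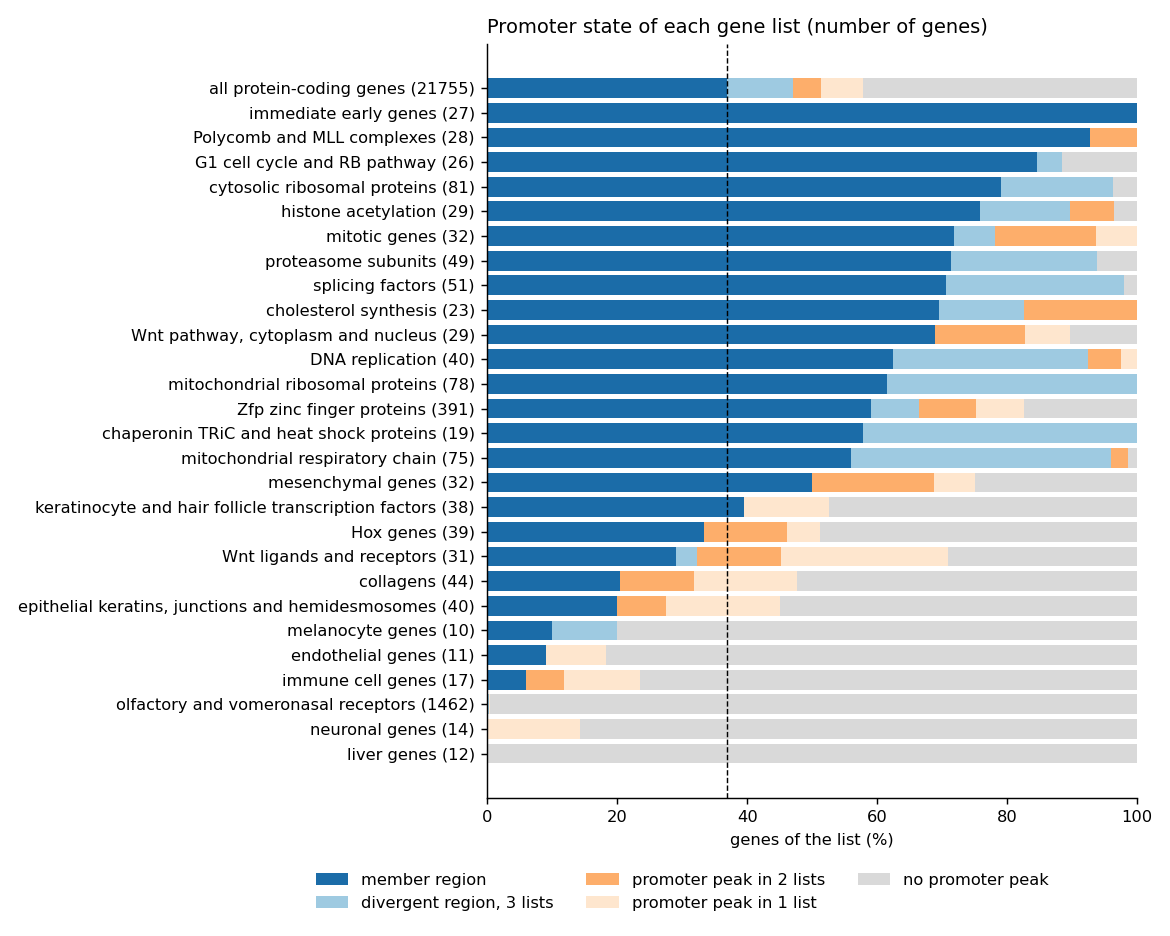
Share in percent of the genes of each list with a shared promoter, a divergent shared region, a promoter peak in 1 or 2 lists or none, with the 37.0% of all protein-coding genes for comparison. Immediate early genes stand at 100%, olfactory and vomeronasal receptors at 0.137%.

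Immediate early genes, which serum and growth factors induce within minutes, had the highest median width of the 27 lists. All 27 had a shared promoter, with a median width of 4032 bp, and 15 of them were 4 kb or wider, compared with 374 of all 8040 genes with a shared promoter (4.65%). Zfp36, whose product destabilises mRNAs with AU-rich elements, had a region of 9417 bp with folds of 40.7, 65.2 and 8.16, and Junb, a subunit of AP-1, one of 8326 bp with 36.8, 69.2 and 10.5. Fosl2, another AP-1 subunit, had 7492 bp with 54.7, 84.3 and 14.7. The region of Myc, the transcription factor of growth and proliferation, was 6185 bp wide with 32.3, 70.6 and 9.77, and that of Fos was 4004 bp wide with 40.5, 91.5 and 21.1. Ccn2, for connective tissue growth factor, had the narrowest of the class at 1606 bp, with 6.66, 37.7 and 5.81.

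**Figure D5:**
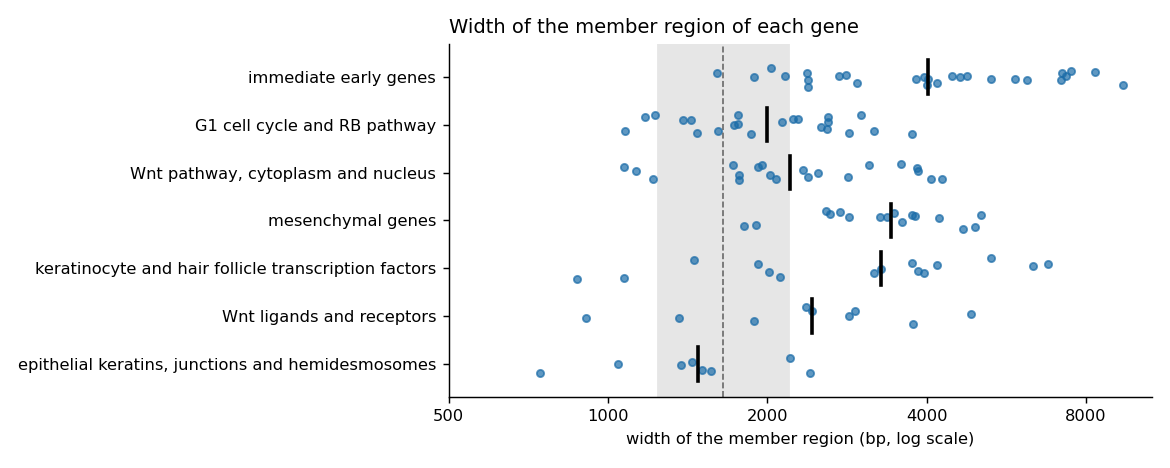
Width in bp on a log axis of the shared promoters of G1, epithelial, keratinocyte and hair follicle, mesenchymal, immediate early and Wnt genes. Each gene of a list is 1 point and the median is marked. Immediate early genes have a median of 4032 bp and mesenchymal genes 3423 bp, against 1649 bp over all shared promoters.

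The 15 widest shared promoters belonged to genes of varied roles. Tnrc18, for a trinucleotide repeat protein, had the widest region of all, with 13852 bp and folds of 39.1, 91.5 and 24.4. Plec, for the cytolinker plectin, had 11162 bp with 22.8, 30.5 and 10.4, and Anxa2, for the calcium-dependent membrane binding protein annexin A2, had 10393 bp with 34.1, 44.2 and 13.0. Myh9, for a heavy chain of non-muscle myosin, and Lmna, for the nuclear lamins A and C, had 9658 and 8999 bp. The regions of Plec, Myh9 and Lmna were at other annotated starts, and the principal start of each gene lay more than 1 kb outside. That of Myh9 held no start, and the nearest was 63 bp away. Setd1b, for a methyltransferase of H3K4, had 9936 bp. Such a region could be a single peak in one list and several in another, for the peaks at Plec numbered 6, 1 and 5 in the 3 lists, and the single peak of clone 2 covered 11005 bp.

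The narrowest were weak in every clone. Zfp300, a zinc finger gene on the X chromosome, had 362 bp with folds of 5.90, 4.14 and 4.41, and Smpd3, for a neutral sphingomyelinase, had 429 bp with 5.98, 7.33 and 4.23. At Zfp300 21, 17 and 33 reads stood behind the summits. Zinc finger genes named Zfp as a class had a shared promoter in 231 of 391 (59.1%), with a median width of 1289 bp.

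The genes of the G1 phase, in which the inhibitors encoded by Cdkn2a and Cdkn2b act, were marked with few exceptions. Of 26 genes of the RB pathway 22 had a shared promoter, Cdk2 had a divergent one, and Cdkn1c, Cdkn2a and Cdkn2b had no promoter peak. Cdk4, a kinase that p15Ink4b and p16Ink4a inhibit, had folds of 36.5, 63.1 and 12.5 in a region of 2237 bp. Cdk6, the other such kinase, had the widest region of the list, with 3752 bp and folds of 21.3, 39.9 and 6.92. Their partner Ccnd1 had 3004 bp with 19.7, 32.3 and 7.01. The pocket proteins differed, with 16.4, 24.7 and 10.9 at Rb1 and 46.4, 87.8 and 10.5 at Rbl2. The inhibitor Cdkn1a, which p53 induces, had 35.9, 50.5 and 8.76.

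Chromatin regulators of the mark and of its antagonist were themselves at shared promoters. Of 28 genes of Polycomb and MLL complexes 26 had one, and Cbx7 and Ezh1 had a peak in 2 lists. Of 29 genes of histone acetylation, among them acetyltransferases, deacetylases and bromodomain proteins, 22 had one and 4 had a divergent one, and Hdac9 had no promoter peak. Their median fold percentile of 92.6, 95.4 and 88.0 was above that of all genes with a shared promoter. The genes of DNA replication had one in 25 of 40 and a divergent one in 12, and mitotic genes in 23 of 32, with folds that were lower in the latter, at a median percentile of 67.0, 79.3 and 66.7. Of 23 genes of cholesterol synthesis 16 had one.

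The Wnt pathway was split by role. Of 29 genes that act in the cytoplasm, the nucleus or in secretion of Wnt proteins, 20 had a shared promoter, and Csnk1a1, for the casein kinase of the destruction complex, had the highest fold of the list in clones 1 and 2, with folds of 53.9, 100 and 13.3. Ctnnb1, for beta-catenin, had 32.2, 57.9 and 8.35, and Axin2, a target and inhibitor of the pathway, had 17.4, 45.9 and 10.6. Of 12 receptors 9 had one, with Lrp6 at 50.3, 93.4 and 27.2 and Fzd7 in a region of 4846 bp. Of the 19 Wnt ligands, 0 had a shared promoter, 4 had a promoter peak in 2 lists, 7 in 1 list and 8 in none. Wnt7b was among the genes with a peak in 1 list. Lef1, the transcription factor of the pathway in hair follicles, had no promoter peak, whereas Tcf7, Tcf7l1 and Tcf7l2 had shared promoters.

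Genes of cell identity had shared promoters less uniformly. Mesenchymal genes had one in 16 of 32, and the regions were wide, with a median of 3423 bp, although the starts of 21.9% of the list were CpG-rich. Vim, for the intermediate filament vimentin, had 5062 bp with folds of 41.6, 55.3 and 14.4. Fn1, for fibronectin, had 3750 bp with 29.1, 67.4 and 12.9, and the transcription factor Zeb2 had 4697 bp with 29.99, 44.8 and 18.6. Snai2, another factor of this programme, was weaker, with 5.97, 13.95 and 9.61. Dcn, Lum, Thy1 and 5 others of the list had no promoter peak. Collagen genes had a shared promoter in 9 of 44.

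Epithelial genes were the reverse. Of 40 genes of keratins, junctions and hemidesmosomes 8 had a shared promoter (20.0%) and 22 had no promoter peak, including Cdh1, Epcam, Dsp, Krt5, Krt8 and Krt18. A promoter peak in 2 lists was found for 3 genes and in 1 list for 7, among them Krt14 and Krt15. Among the 8 was Itgb1, for the widely used integrin beta 1, with folds of 57.8, 80.0 and 17.4, and Tjp1, for a tight junction scaffold that other cells also use, with 22.1, 50.2 and 12.4. Krt19 had a narrow region of 745 bp with 10.0, 6.24 and 6.53. Transcription factors of keratinocytes and hair follicles had one in 15 of 38, a share close to the background, and Klf4 led them with 45.8, 86.5 and 19.2. Runx1, with 6351 bp, and Foxc1, with 6783 bp, had the widest regions of these, and Sox9 had 20.9, 31.4 and 4.70. Trp63, Grhl2 and Tfap2c had no promoter peak.

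Lists of other cell types stayed below the background. A shared promoter was found in 1 of 10 melanocyte genes, which was Mitf with folds of 5.13, 23.4 and 5.23, in 1 of 11 endothelial genes, which was Flt1 with 8.55, 24.7 and 4.54, and in 1 of 17 immune genes, which was Cd14 with 9.64, 45.6 and 8.61. None of 14 neuronal and none of 12 liver genes had one. Hox genes, which Polycomb holds silent outside their domains, had one in 13 of 39 (33.3%), close to the background of 37.0%. A promoter peak was found in 2 lists for 5 Hox genes, in 1 list for 2 and in none for 19. Of 1462 olfactory and vomeronasal receptors, which act in sensory neurons of the nose, 2 had one (0.137%), namely Olfr810 and Olfr56. Over the 27 lists, 17 had a share above the background.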

How the data were processed

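Single-end reads of the H3K27-Ac and IgG libraries were mapped to GRCm38 with bowtie2 by the authors. Submitters' processing notes also list MACS2 2.1.1. Chromatin had been sheared to 400 to 800 bp. The deposited peak lists, 1 per clone, give a fold enrichment, a ratio of ChIP to local control, at each summit. They also give the −log10 p-value and −log10 q-value as deposited by the authors. Peak names mark a filter against mapping bias for clones 1 and 2, and a merge for clone 3. The labels give antibody amounts for CTCF, SMC1 and IgG, and none for H3K27-Ac. The samples used here hold IgG of clones 1 and 3, and the control behind the fold of clone 2 is not given in the sources used here.

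From the lists 29175, 49567 and 29272 peaks were used, leaving out 12, 41 and 8 peaks on other chromosomes. Starts were taken from GENCODE M21. The strongest peak stood for a region in each list, and the principal start was that of the best APPRIS transcript, the one furthest 5′ in case of ties. Reads at summits were solved from fold and p-value as whole numbers within 0.003 read, which was tested on simulated data. Sequences were read with pysam 0.24.0, and values were computed in Python 3.11.15 with pandas 2.3.3 and scipy 1.17.1. Named were the widest 15, the narrowest 5, the 10 with the highest lowest percentile, the 5 furthest ahead per clone, the genes of the lists and the strongest promoter per motif. Members, lists and motifs were chosen with earlier results of these data known. With 1 condition no test was made. Alternatives were other limits of q, distance, starts and overlap, and leaving out each clone. Ranking among shared promoters and starts by transcript support level were added after seeing the data.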

Additional observations from a re-analysis of the deposited data

How the results depend on the processing

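Of 80 alternative values, 69 stayed within the range allowed for the result and 11 moved. The number of shared promoters ran from 6843, with summits within 250 bp in all lists, to 9697, with divergent regions kept. The share of genes with one ran between 37.1% and 39.7% when each clone was left out in turn. The median width of 1649 bp ran from 1297 bp without clone 2 to 1542 bp without clone 1. The share of regions whose start base was covered in all lists fell from 81.1% to 67.2% with 1 start per gene. The CpG-rich share of 71.8% was 73.9% with a −log10 q of at least 5, 74.7% with 1 start per gene, 73.1% with divergent regions kept, 73.2% with summits within 250 bp and 48.8% under the stricter definition, and it ran from 70.0% to 71.7% when each clone was left out. Ranked among shared promoters alone, the members that led by 50 points or more numbered 7 in place of 2 in clone 1, 4 in place of 72 in clone 2 and 107 in place of 5 in clone 3. The cause of these moves was not tested beyond what the settings themselves change. No paired analysis was possible because the results come from no test.

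The lists hold only sites past their threshold, and −log10 q at a member was as low as 1.53 in clone 1, 2.18 in clone 2 and 1.49 in clone 3. Clone 2 had the most reads at its summits, but the control behind its fold is not given in the sources used here. Each clone is 1 culture, so differences between clones have no replicate check.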

Other observations

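Some genes had several shared promoters or one that covered the whole gene. A single one was found for 7494 genes, 2 for 463 genes and 3 or more for 83 genes, with 6 at most, for Synj2, a phosphoinositide phosphatase, and for 2010111I01Rik, both named after their values were seen. A shared promoter covered the whole of its gene in 64 regions, whose genes had a median length of 1325.5 bp. Among these were Actb, for beta-actin, with a region of 6372 bp and folds of 33.5, 107 and 11.5, Hes1, a target of Notch signalling, with 6248 bp and 46.7, 80.4 and 15.3, and Id1, an inhibitor of basic helix-loop-helix factors, with 5416 bp and 17.4, 36.0 and 8.10. Histone genes, which have near-identical copies, made up 21 of the 64.

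The X chromosome had fewer shared promoters than the autosomes. Of its 948 protein-coding genes 203 had one (21.4%), against 37.7% of autosomal genes. Among CpG-rich genes the shares were 53.1% and 60.1%, and among other genes 10.6% and 19.2%. Shared promoters on the X chromosome ranked lower as well, at median percentiles of 72.7, 84.9 and 59.6 in clones 1, 2 and 3, compared with 80.5, 89.3 and 76.2 on the autosomes. Among the autosomes the share ran from 28.5% on chromosome 7, where 19.7% of the genes are olfactory or vomeronasal receptors, to 45.4% on chromosome 15. The latter also had the widest median, 1904 bp, and it is described as gained in these cell lines, and the part of its copy number in these values was not tested.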
